A study of Mus musculus with 24 samples.

Results

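The genes described here are 40 genes of the cell cycle and of DNA replication, chosen by symbol: the licensing factors and replicative helicase, enzymes of DNA synthesis, cyclins and their kinases, the machinery of mitosis, and the E2F and pocket proteins that control many of them. All 40 were found among the 23947 symbols of the deposited expression table. Their RNA was measured in 3 libraries of total RNA from CD-1 mice, an outbred strain, out of 24 samples in the series. The first library was from forebrain at embryonic stage E12.5, the second from lens epithelium at postnatal day 1 and the third from lens fiber at postnatal day 1. The labels name no mutation and no treatment in any of them, and do not say how many animals lay behind each library. The series was made to study the transcription factor Pax6 in lens and forebrain. Lens and forebrain also differed in age, so the effects of tissue and of age cannot be told apart there.

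A dividing cell loads the MCM helicase onto origins before S phase, copies its DNA with the help of the sliding clamp and a supply of nucleotides, and then enters mitosis under the A and B cyclins with Cdk1. Phosphorylation of pocket proteins by cyclin D kinases frees E2F factors, which drive S phase genes. The MuvB complex acts on many mitotic genes through an element called CHR, and their promoters often also hold a separate element, the CCAAT box. In the lens, a single layer of epithelial cells divides, chiefly near the equator, and its daughters leave the cell cycle as they elongate into fibers, while progenitors that line the ventricles of the embryonic forebrain divide and give rise to neurons.

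Values are RPKM, reads scaled to transcript length and to the number of mapped reads, so levels can be set side by side between genes. Each group held 1 library: there was no replicate check, no test was possible, and the depth of the libraries is unknown. Markers matched the labels in part. The neuron markers summed to 698 RPKM in forebrain, 13.7 in epithelium and 7.18 in fiber, and all 9 fiber markers were high in fiber, from 51.6 to 22918 RPKM. Of 7 epithelium markers, Foxe3, a transcription factor of the epithelium, was listed at 0 in forebrain, 19.4 RPKM in epithelium and 0.433 in fiber, whereas Pitx3 (37.3 RPKM in fiber), Clu (450.5) and Trpm3 (85.3) remained well above 1 RPKM in fiber. The 16 crystallins took 0.0180% of the RPKM sum in forebrain, 3.70% in epithelium and 69.2% in fiber.

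The 40 genes were well expressed in forebrain, lower in lens epithelium and low in lens fiber. In forebrain and in epithelium, 40 of 40 were at 1 RPKM or more, and in fiber 15 of 40 were. The summed level of the 40 genes was 1734 RPKM in forebrain, 738.5 in epithelium and 157.1 in fiber. The median gene of the set stood above 93.6% of all symbols in forebrain, above 81.3% in epithelium and above 56.5% in fiber. For 37 of the 40 genes, forebrain was highest and fiber lowest, and the exceptions were Ccnd1, Ccnd3 and E2f1. In these bulk libraries, fewer dividing cells and less RNA per cell cannot be told apart.

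**Figure D1:**
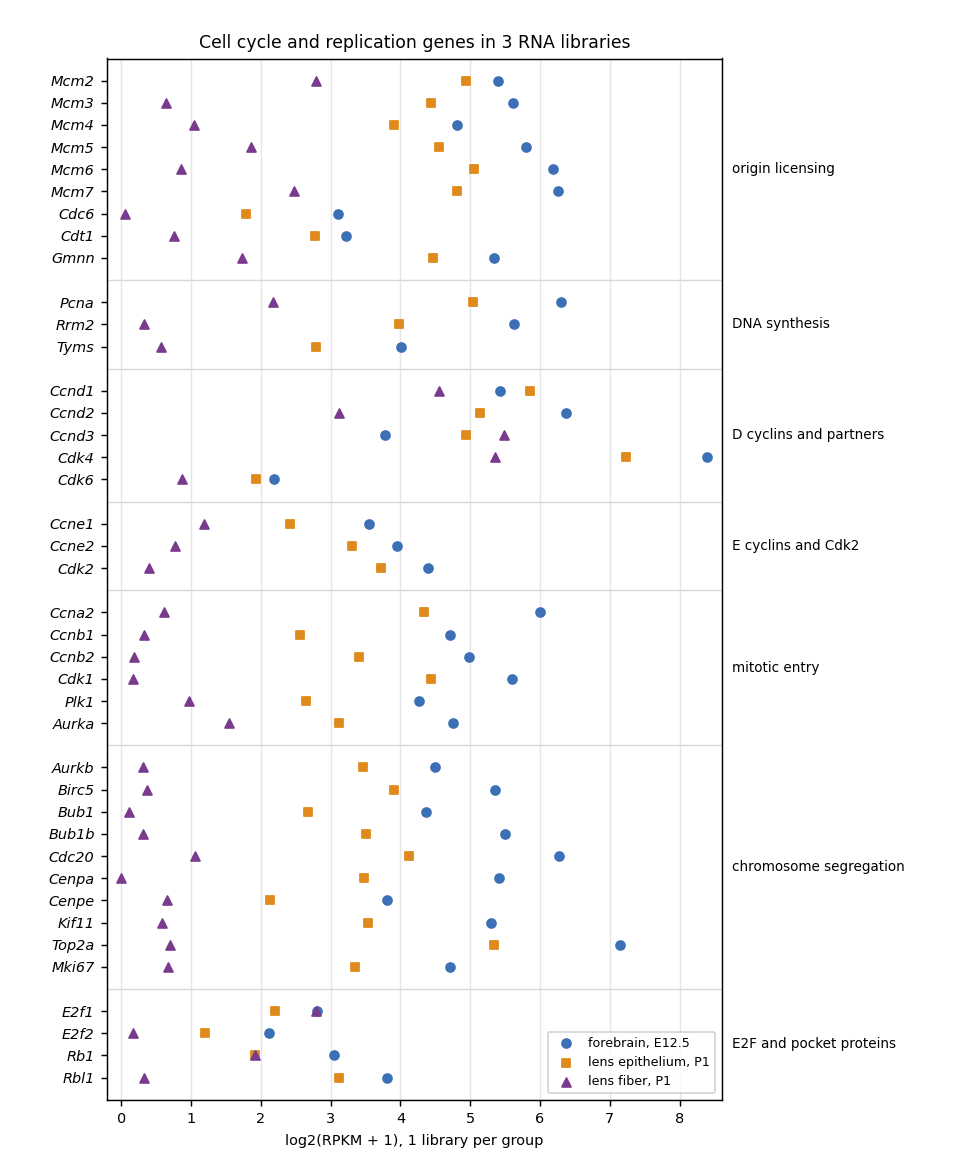
Level of each of the 40 genes in the 3 RNA libraries, as log2(RPKM + 1) on the horizontal axis, with 1 point per library and genes grouped by role. Fiber points lie left of both other points except for Ccnd3 and E2f1, the points of Rb1 for fiber and epithelium coincide, and Cenpa is listed at 0 in fiber.

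Ratios between libraries were taken as the log2 ratio of (RPKM + 1), which understates the change of low genes, for genes that reached 1 RPKM in at least 1 library of the pair. All 40 genes passed that filter in each of the 3 comparisons. In epithelium against forebrain, 28 of the 40 were at least 2-fold lower and 1, Ccnd3, was at least 2-fold higher, while 11.9% of the 12619 genes compared were 2-fold lower and 13.7% were 2-fold higher. Their median log2 ratio was -1.23, against -0.03 for all genes compared. In fiber against epithelium, 37 of the 40 were at least 2-fold lower and 0 were 2-fold higher, against a background of 28.3% lower and 11.4% higher over 12090 genes. The median log2 ratio of the 40 genes in that comparison was -2.62, and that of all genes was -0.42. With each library rescaled to the same RPKM sum outside the crystallins, which lowered fiber relative to epithelium by 0.50 on the log2 scale, the background split became 40.3% lower and 6.60% higher, and 37 of the 40 genes were again at least 2-fold lower. A 4-fold line was passed by 28 of the 40 in fiber against epithelium (8.12% of all genes), and by 2, Ccnb1 and Cdc20, in epithelium against forebrain (3.25% of all genes).

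Against forebrain, 37 of the 40 genes were at least 2-fold lower in fiber and 1, Ccnd3, was at least 2-fold higher, where 31.6% of 12205 genes were lower and 15.9% higher. The equal-sum scaling moved that background to 39.9% lower and 11.2% higher. The median log2 ratio of the 40 genes was -3.77, and 34 of them were at least 4-fold lower in fiber than in forebrain, compared with 11.4% of all genes. The 3 comparisons share libraries, so their counts are not separate pieces of evidence.

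**Figure D2:**
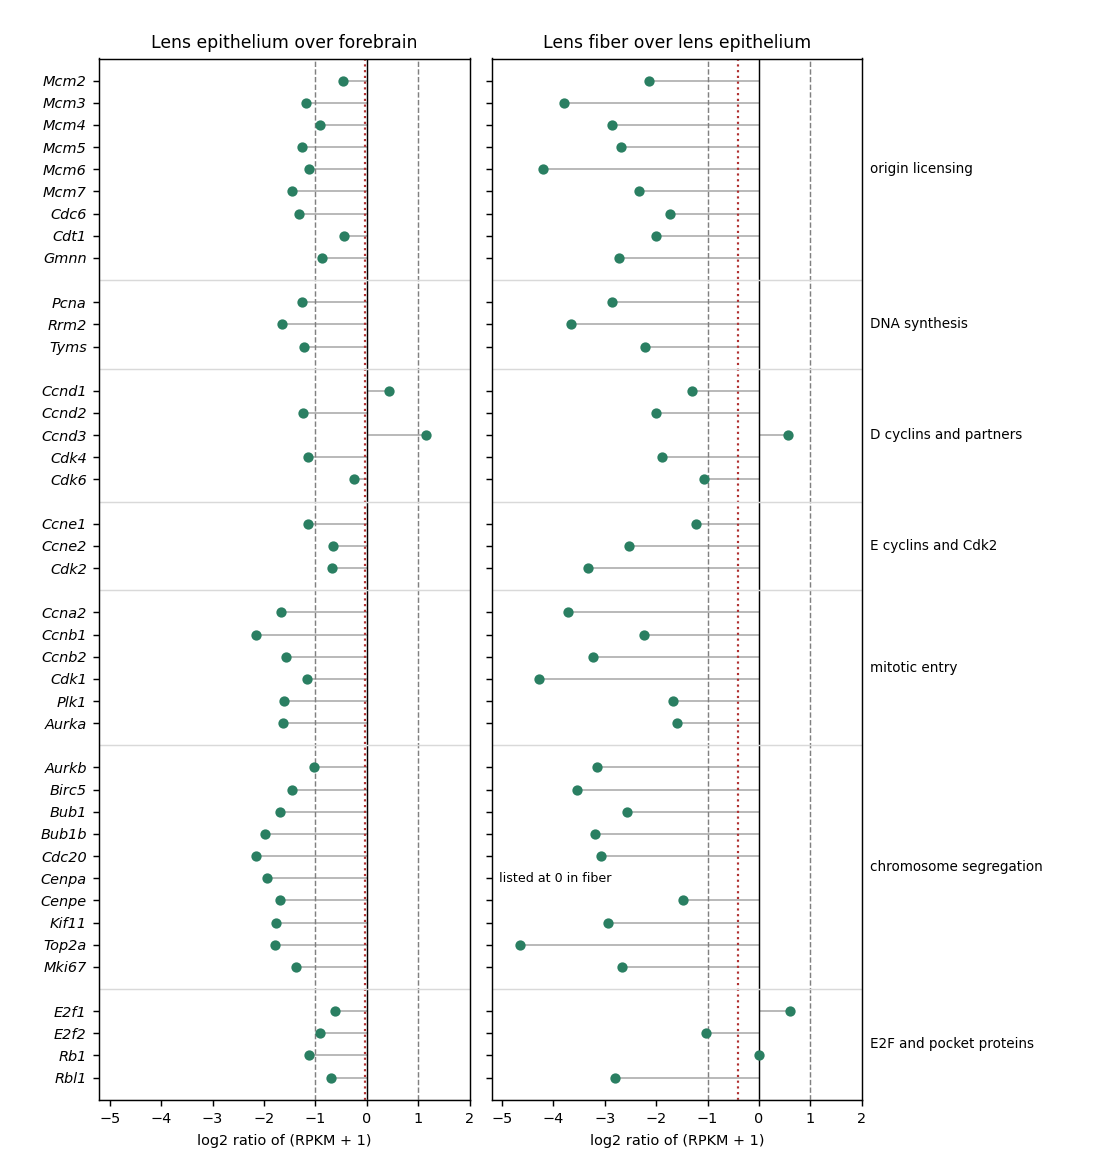
Log2 ratio of (RPKM + 1) for each of the 40 genes in epithelium over forebrain and in fiber over epithelium, with dashed lines at 2-fold and a dotted red line at the median of all genes compared. Most points lie left of the lower dashed line on the right, where Ccnd3, E2f1 and Rb1 stand at 0.55, 0.60 and 0.00, and Cenpa has no point because it is listed at 0 in fiber.

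Promoter sequences were examined because most of these genes moved together across the libraries. Of the 40 genes, 32 matched the RefSeq promoter table of build GRCm38.p6, with 35 promoters of 250 bases before to 50 bases after the start site, and Aurkb, Ccna2, Ccnd1, Ccnd2, Ccne2, Gmnn, Mcm4 and Rb1 were not matched. Both strands were searched for the E2F word TTGGCGC and its variants written as TTCCCGC, in another form as TTGCCGC and in a further form as TTCGCGC. The CHR word was searched as TTTGAA and in its variant form as TTCGAA, and the CCAAT box as those letters. The stretches printed are the 120 bases just before the start site, 5′ to 3′ on the gene's strand, with every letter of a matched word in capitals. The first 3 genes had the lowest ratio of fiber over epithelium among the matched genes: Top2a (chr11:99024190-99024309, minus strand), the DNA topoisomerase that untangles chromosomes, Cdk1 (chr10:69352913-69353032, minus strand), the mitotic kinase, and Mcm6 (chr1:128359706-128359825, minus strand), a helicase subunit. The others, Ccnd3 with its 2 promoters (chr17:47504931-47505050 and chr17:47593347-47593466, plus strand) and E2f1 (chr2:154569427-154569546, minus strand), were the matched genes whose ratio lay above 0.
Top2a: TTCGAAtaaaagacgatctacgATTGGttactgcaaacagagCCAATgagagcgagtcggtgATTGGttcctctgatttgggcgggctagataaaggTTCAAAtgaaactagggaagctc
Cdk1: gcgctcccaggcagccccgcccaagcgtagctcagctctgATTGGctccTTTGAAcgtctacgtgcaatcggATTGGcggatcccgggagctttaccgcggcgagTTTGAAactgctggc
Mcm6: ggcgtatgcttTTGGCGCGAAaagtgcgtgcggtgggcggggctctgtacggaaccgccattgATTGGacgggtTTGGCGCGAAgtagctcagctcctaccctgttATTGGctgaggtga
Ccnd3, promoter 1: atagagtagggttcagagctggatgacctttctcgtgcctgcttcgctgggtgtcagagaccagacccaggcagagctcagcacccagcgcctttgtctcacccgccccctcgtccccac
Ccnd3, promoter 2: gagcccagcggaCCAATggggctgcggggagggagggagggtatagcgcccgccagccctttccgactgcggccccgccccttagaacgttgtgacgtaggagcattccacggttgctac
E2f1: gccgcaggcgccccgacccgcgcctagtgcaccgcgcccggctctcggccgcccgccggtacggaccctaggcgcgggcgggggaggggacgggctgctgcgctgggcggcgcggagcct

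In these stretches, Top2a held 2 CHR words and 3 CCAAT boxes, and Cdk1 held 2 CHR words and 2 CCAAT boxes. Mcm6 held 4 E2F words in overlapping pairs, with 2 CCAAT boxes and no CHR word. The stretch of E2f1 and that of the first Ccnd3 promoter held none of these words, which says only that the letters are not in this window. Across the whole windows, an E2F word was found for 13 of the 32 genes (40.6%), against 10.9% of the 27025 genes in the table and 9.57% of its 32851 promoters. A CHR word was found for 14 (43.8%), against 21.7% of genes and 19.2% of promoters. A CCAAT box was found for 23 (71.9%), against 41.1% of genes and 37.4% of promoters.

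By role, the counts were small and were not tested. An E2F word was found for 6 of 7 matched licensing genes, 2 of 5 genes of mitotic entry and 1 of 9 of chromosome segregation. CHR words were found for 4 of 5 genes of mitotic entry and 7 of 9 of chromosome segregation, against 2 of 7 licensing genes, and a CCAAT box was found for 5 of 7 licensing genes, 5 of 5 of mitotic entry and 8 of 9 of segregation. Cdk1, E2f2, Mcm7 and Mki67 held all 3 kinds of word, whereas Birc5, Ccne1, Cdk4, Cdk6, E2f1 and Tyms held none. The log2 ratios of these genes without a word in fiber over epithelium were, in that order, -3.53, -1.23, -1.89, -1.07, 0.60 and -2.22. A match describes letters in a promoter and is not a measured site. E2F and CCAAT words overlapped in the promoters of Ccnb1 and Mcm7, and within the 150 bases nearest the start site 8 genes held an E2F word, 4 of the 7 licensing genes among them, against 6.49% of all genes.

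Origin licensing was represented by 9 genes. Mcm2 to Mcm7 encode the 6 subunits of the replicative helicase, Cdc6 and Cdt1 load it, and Gmnn encodes geminin, the inhibitor of Cdt1. Mcm6 was at 71.5 RPKM in forebrain, 32.2 in epithelium and 0.806 in fiber. Mcm3 was at 47.8, 20.6 and 0.566 RPKM in the same order. The fiber level was thus 2.50% of the epithelium level for Mcm6 and 2.74% for Mcm3, with log2 ratios of -4.20 and -3.79. Mcm2 stood apart from them, at 41.3 RPKM in forebrain, 29.6 in epithelium and 5.93 in fiber, so that fiber kept 20.1% of the epithelium level. Mcm7 was at 75.3, 26.999 and 4.57 RPKM, and its fiber level was 16.9% of that in epithelium.

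The helicase subunits, which act as a complex with equal numbers of each, were closer to each other in level in forebrain and epithelium than in fiber, where levels were low. The highest subunit was 2.78 times the lowest in forebrain, 2.31 times in epithelium and 10.5 times in fiber, and the summed level of the 6 was 317.8, 145.8 and 15.6 RPKM. Mcm7 overlaps the coding gene Ap4m1, listed at 2.77 RPKM in fiber, and Mcm2 overlaps no coding gene. Cdc6 was the lowest licensing gene in each library, at 7.60 RPKM in forebrain, 2.47 in epithelium and 0.0426 in fiber. Geminin (Gmnn) was at 39.4, 21.1 and 2.32 RPKM, and Cdt1 at 8.28, 5.84 and 0.695. Against forebrain, 5 of the 9 were at least 2-fold lower in epithelium (median log2 ratio -1.13), and the smallest differences were those of Cdt1 (-0.44) and Mcm2 (-0.47). In fiber against epithelium, 9 of 9 were at least 2-fold lower.

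**Figure D3:**
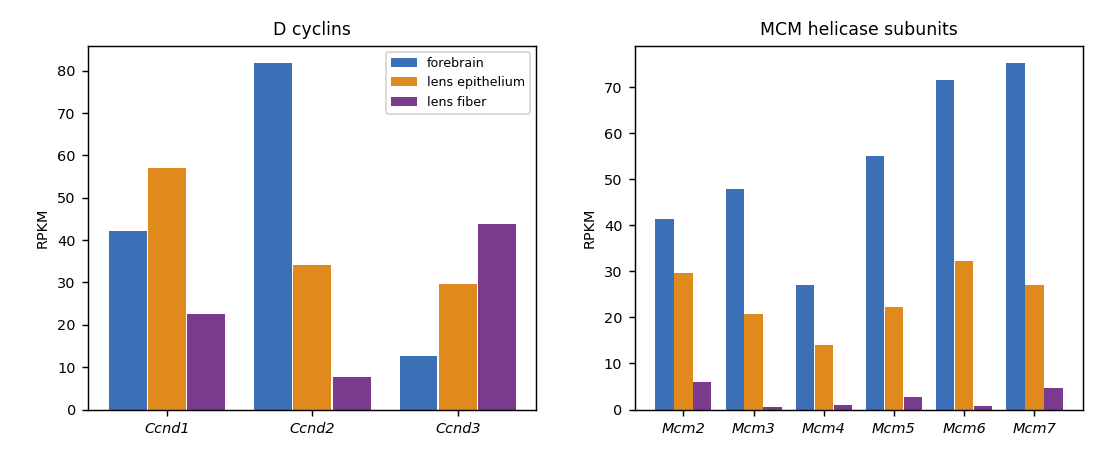
RPKM of the 3 D cyclins and of the 6 MCM helicase subunits in forebrain, lens epithelium and lens fiber, with 1 bar per library on an axis from 0. The D cyclin with the tallest bar is Ccnd2 in forebrain, Ccnd1 in epithelium and Ccnd3 in fiber, while fiber bars are the lowest for each MCM subunit.

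Enzymes of DNA synthesis were lower in each step. Pcna, the sliding clamp, was at 77.6 RPKM in forebrain, 31.8 in epithelium and 3.53 in fiber. Rrm2, the small subunit of ribonucleotide reductase that makes deoxynucleotides, was at 48.3, 14.8 and 0.256 RPKM. Tyms, which makes thymidylate, was at 15.1, 5.93 and 0.492 RPKM. All 3 were at least 2-fold lower in epithelium than in forebrain and again in fiber than in epithelium, and Rrm2 had the lowest ratio of the 3 in each (log2 -1.64 and -3.65). Pcna and Tyms have annotated pseudogenes (Pcna-ps1, Pcna-ps2 and Tyms-ps), and the sources used here do not give how reads shared with such copies were counted.

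The D cyclins, which carry growth signals to the cell cycle, were listed in a different order of level in each library. Ccnd2 was at 81.9 RPKM in forebrain, 34.1 in epithelium and 7.70 in fiber. Ccnd1 was at 42.1 RPKM in forebrain, 57.0 in epithelium and 22.5 in fiber. Ccnd3 was at 12.7, 29.6 and 43.9 RPKM and was the member of the family that was lowest in forebrain and highest in fiber. Of the summed D cyclin level, Ccnd2 made up 59.9% in forebrain, 28.3% in epithelium and 10.4% in fiber, and Ccnd3 made up 9.30%, 24.5% and 59.2%. These shares are taken within a library and do not depend on the scaling between libraries. The summed level itself was 136.7 RPKM in forebrain, 120.7 in epithelium and 74.1 in fiber.

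Ccnd3 was the only one of the 40 genes that was at least 2-fold higher in epithelium than in forebrain (log2 ratio 1.16) and in fiber than in forebrain (1.71), and under 4 other scalings of the libraries these ratios lay between 1.01 and 1.23 and between 1.12 and 1.93. Its log2 ratio in fiber over epithelium was 0.55 as deposited and ranged from -0.03 to 0.79 with the scaling, so the direction between the lens libraries depended on it. The gene overlaps the coding gene Bysl, listed at 6.39, 6.13 and 7.46 RPKM in forebrain, epithelium and fiber, and has a pseudogene, Ccnd3-ps. Ccnd1 overlaps Oraov1, which was listed at 6.31, 4.22 and 10.9 RPKM. The libraries were strand-specific, but the sources used here do not give whether the counting used the strand.

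Cdk4, the kinase that D cyclins activate, was the most abundant of the 40 genes in forebrain and epithelium, at 334.1 RPKM in forebrain, 149.8 in epithelium and 39.8 in fiber. Its relative Cdk6 was at 3.57, 2.82 and 0.824 RPKM, so that Cdk4 made up between 98.0% and 98.9% of their summed level in each library. Cdk6 was 2-fold lower in fiber than in epithelium by a narrow margin, with a log2 ratio of -1.07 that ranged from -1.31 to -0.96 with the scaling. The fiber level of Cdk4 was 26.5% of that in epithelium as listed. Cdk4 overlaps the coding gene Tspan31, listed at 26.2 RPKM in forebrain, 39.8 in epithelium and 21.5 in fiber. The fiber levels of the 3 D cyclins, Cdk4 and Cdk6 together summed to 42.0% of their epithelium sum.

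The E cyclins and their kinase Cdk2 start S phase. Ccne1 was at 10.7 RPKM in forebrain, 4.33 in epithelium and 1.28 in fiber, and Ccne2 at 14.4, 8.85 and 0.714. The order of the E cyclins was thus Ccne2 above Ccne1 in forebrain and epithelium and the opposite in fiber, where both were low. Cdk2 was at 20.1, 12.2 and 0.323 RPKM, and its fiber level was 2.64% of the epithelium level. All 3 were at least 2-fold lower in fiber than in epithelium, and of the 3 only Ccne1 was 2-fold lower in epithelium than in forebrain (log2 ratio -1.14). Cdk2 overlaps Pmel, a pigment cell gene listed at 52.7 RPKM in epithelium and 0.0916 in forebrain, and Ccne2 overlaps Ints8.

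Genes of mitotic entry were among the lowest in fiber. Cdk1, the kinase that drives mitosis, was at 47.5 RPKM in forebrain, 20.8 in epithelium and 0.125 in fiber, so that the fiber level was 0.601% of that in epithelium. This was the lowest share among the genes with a value above 0. Ccna2, the A cyclin of S phase and mitosis, was at 62.8, 19.1 and 0.537 RPKM. Ccna2 overlaps the coding gene Exosc9, listed at 17.0, 14.0 and 14.5 RPKM. Of the B cyclins, which activate Cdk1, Ccnb1 was at 25.2, 4.89 and 0.252 RPKM and Ccnb2 at 30.5, 9.62 and 0.137. Both have an annotated pseudogene (Ccnb1-ps and Ccnb2-ps), with the same limit on read counting as for Pcna and Tyms. Ccnb1 was also one of the genes that differed most between epithelium and forebrain, with a log2 ratio of -2.15.

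The mitotic kinases Plk1 and Aurka were less low in fiber than the cyclins. Plk1, which acts at centrosomes and at mitotic entry, was at 18.3, 5.29 and 0.961 RPKM, and Aurka, the centrosomal Aurora kinase, at 26.0, 7.74 and 1.91. Fiber kept 18.2% of the epithelium level of Plk1 and 24.6% of that of Aurka, whose log2 ratios in fiber over epithelium were -1.68 and -1.59. Aurka overlaps the coding gene Cstf1, which was listed at 15.9, 14.8 and 23.6 RPKM, and Plk1 overlaps none. All 6 genes of mitotic entry were at least 2-fold lower in epithelium than in forebrain (median log2 ratio -1.62) and in fiber than in epithelium (median -2.73).

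Chromosome segregation was the role with the lowest ratios in both steps. Top2a was at 140.2 RPKM in forebrain, 39.7 in epithelium and 0.616 in fiber, with log2 ratios of -1.79 in epithelium over forebrain and -4.65 in fiber over epithelium, the lowest of the 40 genes in the latter. Cdc20, the activator of the anaphase promoting complex, was at 76.4, 16.4 and 1.07 RPKM and was the only gene of this role at 1 RPKM or more in fiber. Cdc20 overlaps the coding gene Elovl1, listed at 3.61, 7.95 and 7.70 RPKM. Cenpa, the histone variant of centromeres, was at 41.8 RPKM in forebrain and 10.2 in epithelium and was listed at 0 in fiber. Gapdh, a gene that all cells use, was listed at 0.483, 0.199 and 0.573 RPKM, so a value low in all 3 libraries need not mean little RNA. Cenpa differs from Gapdh in that it was low in fiber alone. Whether the 0 of Cenpa was a failed estimate was not tested, and no fold is given for Cenpa. Without it, 36 of the other 39 genes were at least 2-fold lower in fiber than in epithelium.

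The checkpoint kinases Bub1 and Bub1b, which hold anaphase until chromosomes attach, followed the same order. Bub1b was at 44.1, 10.4 and 0.240 RPKM in forebrain, epithelium and fiber, and Bub1 at 19.7, 5.40 and 0.0807. Aurkb and Birc5, partners in the chromosomal passenger complex, were at 21.5, 10.0 and 0.236 RPKM and at 39.8, 13.98 and 0.294 RPKM, and their fiber levels were alike as shares of epithelium, at 2.35% and 2.10%. Mki67, the proliferation antigen Ki-67 that coats mitotic chromosomes, was at 25.3, 9.17 and 0.598 RPKM. The motor proteins were Kif11, which separates spindle poles, at 38.5, 10.6 and 0.503 RPKM, and Cenpe, which moves chromosomes to the spindle equator, at 13.1, 3.39 and 0.578.

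All 10 segregation genes were at least 2-fold lower in epithelium than in forebrain, with a median log2 ratio of -1.73 and a range from -2.15 for Cdc20 to -1.03 for Aurkb. Aurkb crossed the 2-fold line with the scaling, between -1.17 and -0.96. In fiber over epithelium the median was -3.11 and Cenpe was the least low, at -1.48. The summed level of these 10 genes in fiber was 3.26% of that in epithelium, and their summed level in epithelium was 28.1% of that in forebrain.

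The E2F and pocket proteins control many of the other genes, and they did not move as a group in the comparisons with fiber. In epithelium over forebrain all 4 were lower, with log2 ratios from -1.13 to -0.61. E2f1, an activator of S phase genes, was at 6.02 RPKM in forebrain, 3.60 in epithelium and 5.94 in fiber. Its log2 ratio in fiber over epithelium was 0.60, the highest of the 40 genes, with a range from 0.10 to 0.80 over the scalings, and was not past 2-fold under any of them. E2f2, a second activator, was at 3.33, 1.30 and 0.124 RPKM and was 2-fold lower in fiber than in epithelium by a narrow margin (log2 ratio -1.04). Rb1, the retinoblastoma protein, was at 7.30 RPKM in forebrain and 2.78 in both lens libraries. Rbl1, the pocket protein p107, was at 13.1, 7.69 and 0.251 RPKM, with a fiber level of 3.26% of that in epithelium.

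Among the pocket proteins, to which Rbl2 (p130) was added for this comparison, Rbl1 made up 55.2% of the summed level in forebrain, 54.4% in epithelium and 4.74% in fiber. Rb1 then held 52.5% and Rbl2 42.8% of the sum in fiber, from 19.7% and 25.9% in epithelium. The sum itself was 23.7 RPKM in forebrain, 14.1 in epithelium and 5.29 in fiber. The 3 genes that were not 2-fold lower in fiber than in epithelium, Ccnd3, E2f1 and Rb1, each overlap another coding gene. Of the 40 genes, 11 have such an overlap. The rest of those 11, Mcm7, Ccnd1, Cdk4, Ccne2, Cdk2, Ccna2, Aurka and Cdc20, were at least 2-fold lower in that comparison. Necab3, which overlaps E2f1, was itself at 2.31 RPKM in forebrain, 0.512 in epithelium and 4.07 in fiber, and Lpar6, inside Rb1, was at 7.17, 6.37 and 0.333. The part of these neighbours in the listed levels was not tested, and all of the 29 genes without an overlapping coding gene were at least 2-fold lower in fiber than in epithelium.

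**Figure D4:**
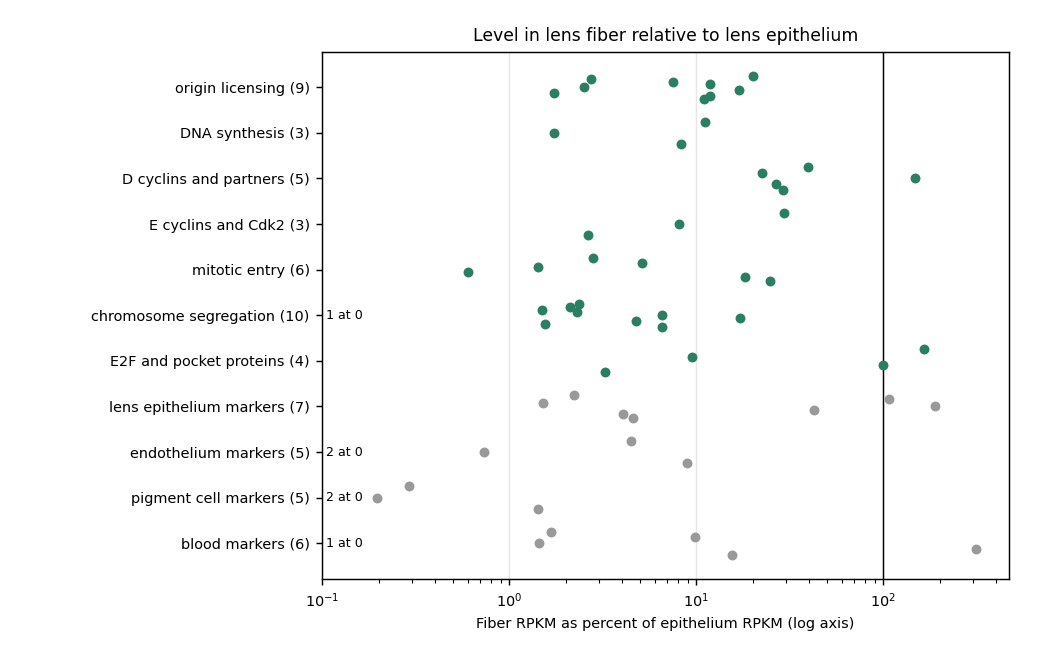
Fiber RPKM as a percent of epithelium RPKM on a log axis, with 1 point per gene for the 7 roles of the 40 genes (green) and for 4 marker lists (grey), and the count listed at 0 at the left. Segregation genes lie at 17.0% or lower, D cyclins and their kinases at 22.6% or higher, and the blood marker farthest right is Hbb-bh1 at 312%.

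Set beside each other by role, the fiber level as a percent of the epithelium level had a median of 2.33% for chromosome segregation, 3.97% for mitotic entry, 8.07% for the E cyclins and Cdk2, 8.28% for DNA synthesis, 11.0% for origin licensing, 29.2% for the D cyclins and their kinases, and 54.7% for the E2F and pocket proteins. Over all 40 genes, 16 lay under 5% and 10 lay over 20%. These values are descriptive, and no test separates the roles. Low fiber values weigh on them, since 25 of the 40 genes were below 1 RPKM in fiber. The 7 epithelium markers were split: Cdh1 (E-cadherin) was at 1.51% of its epithelium level in fiber, Foxe3 at 2.23%, Pdpn at 4.06% and Npnt at 4.58%, but Trpm3 was at 42.5%, Pitx3 at 106.7% and Clu at 189.6%. Their fiber sum was 91.7% of their epithelium sum.

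Markers of other cell types differed between the libraries beside these genes. The forebrain progenitor markers, like the 40 genes, summed to less in lens: 501.7 RPKM in forebrain, 88.1 in epithelium and 60.4 in fiber, with a median log2 ratio of -1.60 in epithelium over forebrain. Sox1 among them was at 13.1, 11.6 and 48.5 RPKM. Of the endothelium markers, 5 of 5 were between 5.24 and 12.8 RPKM in epithelium, and their sum was 20.5 RPKM in forebrain, 51.3 in epithelium and 1.70 in fiber, where Cdh5 and Emcn were at 0. The pigment cell markers summed to 4.86, 111.4 and 0.863 RPKM, with Tyr and Mlana at 0 in fiber, and the mesenchyme markers to 52.2, 56.2 and 2.66 RPKM. Of these, Pdgfra was at 2.89 RPKM in forebrain and 52.9 in epithelium, whereas Col3a1 was at 44.6 and 1.94, and Col1a1 and Twist1 were also lower in epithelium. Blood markers summed to 1411 RPKM in forebrain, 343.6 in epithelium and 6.23 in fiber. The myeloid markers stayed at 2.24 RPKM or lower in every library. The part of such cells in the levels of the 40 genes was not tested.

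The wider machinery was read from 9 further lists with 124 genes in the table, described by counts and read against the 11.9% and 28.3% of all genes that were 2-fold lower in epithelium and in fiber. In epithelium against forebrain, mitotic kinesins and cytokinesis genes were nearest to the segregation genes, with 14 of 16 at least 2-fold lower (median log2 ratio -1.72). In fiber against epithelium, 14 of 16 were lower (median -2.13), while the list of nucleotide supply had the lowest median, at -2.34. Prc1, which bundles the midzone microtubules, was at 55.1 RPKM in forebrain, 13.4 in epithelium and 0.515 in fiber, and Kif2c and Kif20a had the lowest ratios against forebrain, at -2.12 and -2.08. Of the kinetochore and spindle checkpoint genes, 10 of 13 were 2-fold lower in each of those comparisons. With a pseudocount of 5 RPKM, the counts in fiber over epithelium were 6 of 16 for the kinesin list and 5 of 13 for the kinetochore list, and with 1 RPKM required in both libraries they were 1 of 3 and 0 of 3. The share of all genes that were lower was 9.69% with that pseudocount and 18.2% with that filter. Spc25, a subunit of the NDC80 complex that grips microtubules, was at 49.9, 14.2 and 0.147 RPKM, whereas Zwint was at 36.5, 33.9 and 38.2. Condensin and cohesin genes were lower for 7 of 15 in epithelium and for 11 of 15 in fiber, with Pttg1 (securin) at 59.2, 17.1 and 0.712 RPKM and Ncaph2, a condensin II subunit, at 34.5, 25.2 and 40.4. With a pseudocount of 5, these counts were 4 and 7 of 15, against 5.04% and 9.69% of all genes. In fiber, 7 of 11 were lower with 1 RPKM required in both libraries, against 18.2% of all genes.

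**Figure D5:**
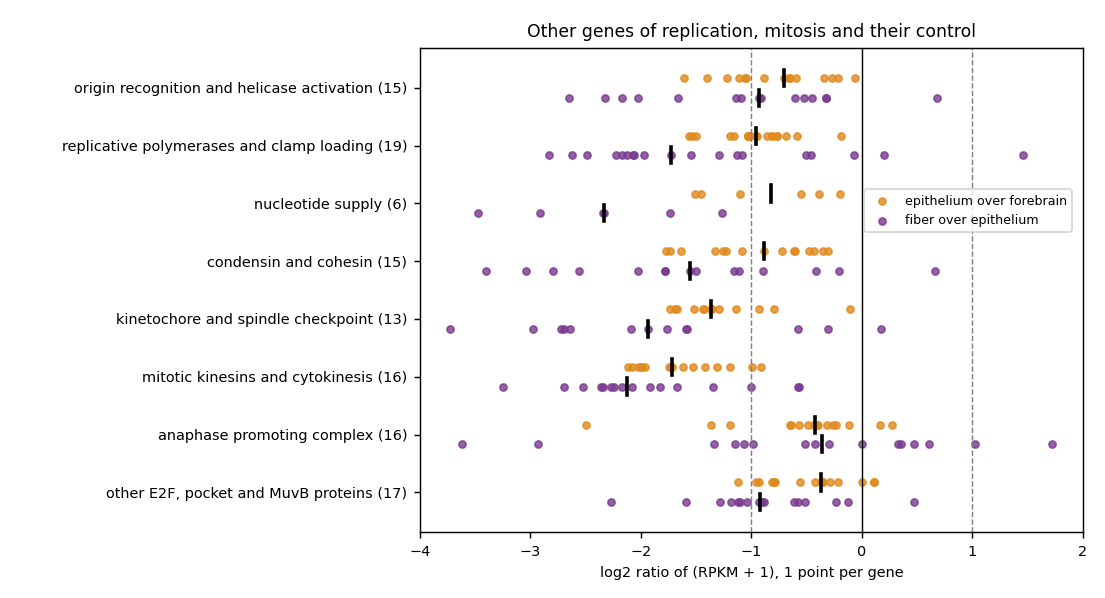
Log2 ratio of (RPKM + 1) for genes of 8 further lists, with orange points for epithelium over forebrain, purple points for fiber over epithelium, black bars at list medians and dashed lines at 2-fold. List medians in fiber over epithelium run from -2.34 for nucleotide supply to -0.36 for the anaphase promoting complex.

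Further lists held replication genes outside the 40. All 6 genes of nucleotide supply were at least 2-fold lower in fiber than in epithelium, with Tk1 (thymidine kinase) at 24.4 RPKM in forebrain, 18.4 in epithelium and 0.754 in fiber, and 3 of 6 were lower in epithelium than in forebrain. Replicative polymerase and clamp genes were lower for 14 of 19 in fiber than in epithelium and higher for 1, Pold2, a subunit of polymerase delta, at 16.9, 10.2 and 29.6 RPKM, which was not 2-fold higher with equal sums outside the crystallins. Its partner Pold1, the catalytic subunit, was at 21.1, 9.95 and 0.781 RPKM. Against forebrain, 9 of the 19 were lower in epithelium, and 5 were with equal sums outside the crystallins, where 11.0% of all genes were. With a pseudocount of 5, 4 of the 19 were lower in epithelium than in forebrain and 8 in fiber than in epithelium. The shares of all genes at that setting were 5.04% and 9.69%. With 1 RPKM required in both libraries, 9 of 14 were lower in fiber than in epithelium, against 18.2% of all genes. Origin recognition and helicase activation genes were lower for 7 of 15 in fiber than in epithelium, from Cdc45, a part of the active helicase, at 24.9, 11.0 and 0.910 RPKM to Orc2, a part of the origin recognition complex, at 16.8, 10.3 and 17.2. That count was 4 of 11 with 1 RPKM required in both libraries (18.2% of all genes). In epithelium against forebrain, 6 of 15 were lower, and 2 were with a pseudocount of 5 (5.04% of all genes).

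Regulators made up further lists. Of 16 anaphase promoting complex genes, 5 (31.3%) were at least 2-fold lower in fiber than in epithelium and 2 of 16 were higher, near the shares of all genes, 28.3% and 11.4%. In epithelium against forebrain, 3 of the 16 (18.8%) were lower, against 11.9% of all genes. Ube2c, its ubiquitin-conjugating enzyme, was at 80.4 RPKM in forebrain, 13.5 in epithelium and 0.177 in fiber, while the core subunit Anapc13 was at 55.4, 67.0 and 222.7. The other higher gene, Anapc2, had a log2 ratio of 1.02 and was below 2-fold with equal sums outside the crystallins, which left 1 of 16 higher. Other E2F, pocket and MuvB genes were lower for 7 of 16 in fiber than in epithelium, and for 12 with that scaling, under which 40.3% of all genes were lower. With a pseudocount of 5, 1 of the 16 was, against 9.69% of all genes. Foxm1, a transcription factor of mitotic genes, was at 6.34, 2.37 and 0.115 RPKM and was the 1 gene of 17 that was 2-fold lower in epithelium than in forebrain as reported. That count was 5 with a pseudocount of 0.1 RPKM, 3 with the housekeeping median set to 0 and 0 with a pseudocount of 5. The shares of all genes lower at these settings were, in that order, 15.7%, 14.0% and 5.04%.

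Inhibitors of cyclin-dependent kinases, which slow or stop the cycle, were listed at levels of their own. Cdkn1c (p57) was at 38.8 RPKM in forebrain, 295.1 in epithelium and 411.6 in fiber, the highest of the 7 inhibitors in both lens libraries. Cdkn1b (p27) was at 46.4, 30.2 and 15.4 RPKM, and Cdkn2c (p18) at 6.98, 11.4 and 1.90. Of the 4 that passed the filter, Cdkn1c was at least 2-fold higher in epithelium than in forebrain and 0 were 2-fold lower, where 13.7% of all genes were higher and 11.9% lower. In fiber against forebrain, 2 of 4 were lower and Cdkn1c was higher, where 31.6% of all genes were lower and 15.9% higher. With a pseudocount of 5, 1 of those 4 was lower, against 13.1% of all genes. In fiber against epithelium, 1 of 3, Cdkn2c (log2 ratio -2.10), was lower, where 28.3% of all genes were. That count was 2 of 3 with equal sums outside the crystallins and with the housekeeping median set to 0, where 40.3% and 31.9% of all genes were lower.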

How the data were processed

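RNA was measured in 1 library each of forebrain, lens epithelium and lens fiber, prepared by a directional dUTP protocol from total RNA, per the labels' protocols. The deposited values are RPKM per gene symbol; the submitters' processing notes list mm9, Cuffdiff, Cufflinks (version 2) and TopHat2 (version 2) without giving their roles. The sources used here do not give the annotation, any scaling between libraries or the use of strand in counting.

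From these, log2((RPKM + 1)/(RPKM + 1)) was computed for each of 3 pairs, for genes reaching 1 RPKM in at least 1 of the pair, with Python 3.11.15, pandas 2.3.3 and numpy 2.4.6, and genes past 2-fold were counted. The calculation was tested on simulated data. No p-value was computed. All 40 genes are named; of each further list, names were taken from the 2 lowest and 2 highest ratios in fiber over epithelium and in epithelium over forebrain. The genes, lists and alternatives were chosen with earlier results of these data known. Promoters and overlapping genes came from RefSeq tables of GRCm38.p6, used by symbol. Chromatin files, in mm9 coordinates, were not analysed here. Alternatives were other pseudocounts (0.1 and 5), filters, scalings, a 4-fold line and subsets of the genes.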

Additional observations from a re-analysis of the deposited data

How the results depend on the processing

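No paired analysis was possible because each RNA group held 1 library, so no replicate could be left out either. Under 11 settings in all, the median log2 ratio of the 40 genes kept its sign and stayed past 2-fold, from -1.37 to -1.07 in epithelium over forebrain, from -4.62 to -2.42 in fiber over forebrain and from -3.54 to -1.52 in fiber over epithelium. Counts that moved by over 1.5 times were these. With a 4-fold line, 2 genes were lower and 0 higher in epithelium than in forebrain, and 0 were higher in fiber than in forebrain. With a pseudocount of 5 RPKM, 0 were higher in epithelium than in forebrain. Among the 29 genes without an overlapping coding gene, chosen after seeing the data, 0 were higher in either comparison with forebrain. With at least 1 RPKM required in both libraries, only 15 genes remained in the comparisons with fiber, and 12 of them were lower in each. Of all genes, 21.3% were then lower in fiber than in forebrain and 18.2% in fiber than in epithelium. Of single genes, 10 lost their 2-fold call in fiber over epithelium with the pseudocount of 5, and 6 in epithelium over forebrain. Of the counts for further lists, 46 of 432 moved by over 1.5 times, 26 of them in fiber over epithelium. With 1 library per group and no depth, fiber values below 1 RPKM cannot be ranked with confidence.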
